A study of Homo sapiens with 21 samples.

Results

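SMAP8D and SMAP6G are separate drug-resistant lines of Panc-1, a human pancreatic ductal carcinoma line, and each was grown from 1 colony. Both had survived long passage in SMAP, a compound that the study describes as an activator of protein phosphatase 2A (PP2A). The comparison sets the 3 libraries labelled with the genotype SMAP8D against the 3 labelled SMAP6G, which are 6 of the 21 RNA-seq libraries analysed. A further SMAP clone, SMAP9C (3 libraries), and 4 clones raised under ATUX or Sorafenib (ATUX8H, ATUX9D, Sor6G and Sor9H, each kept at 8 µM of its drug) are used for levels and for the shared estimate of the spread.

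Per the labels' protocols, the cells were passaged over 4 months while the drug was raised in steps, and single colonies were then isolated by serial dilution. Both clones were kept in standard medium with 8 µM SMAP, so the drug, its dose and the parental line are the same on both sides. The colonies to be sequenced were picked with the help of qRT-PCR, and each genotype is 1 clone. A difference between them is therefore a difference between 2 clones that share their exposure. No untreated parental cells were analysed here. Nothing in the labels says that the 3 repeats of a clone were separate cultures, so the p-values rest on a spread between libraries that may be technical. The labels give no batch or run order.

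PP2A is a serine and threonine phosphatase built from a scaffold, a catalytic and a regulatory subunit, and the regulatory subunit decides which proteins it acts on. It opposes many kinases, among them those of the ERK, AKT and WNT pathways and those of the cell cycle. Panc-1 is usually described as a poorly differentiated line that holds both epithelial and mesenchymal traits.

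The 6 libraries held 21515482 to 24997019 counts, and mitochondrial genes took 3.65 to 4.22% of them. Libraries of a clone differed from each other by a root-mean-square log2 difference of 0.37 to 0.38 (6 pairs), and SMAP8D and SMAP6G libraries differed by 0.70 to 0.71 (9 pairs). The label of ductal epithelium was checked against 12 duct markers. Their summed level was 1493 to 1562 CPM (read counts scaled to library size, after TMM scaling) in SMAP8D and 3124 to 3264 CPM in SMAP6G, most of it from keratins, while CFTR, a chloride channel of duct cells, had 0 counts in all 6 libraries. Of the 12 duct markers, 4 lay below 1 CPM, and 2 had 0 counts in these libraries. In the test given below, 2 of 8 duct markers were higher in SMAP8D (25%) and 3 lower (37.5%). All 10 acinar markers, 9 of 10 immune, 9 of 10 endothelial and 9 of 10 endocrine markers lay below 1 CPM.

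Of 16504 genes tested, 2836 (17.2%) were higher in SMAP8D and 2905 (17.6%) were lower (edgeR quasi-likelihood test, adjusted p below 0.05, all 21 libraries in the fit). Most of these differences were small, with a median absolute log2 fold change of 0.40 among called genes. A call together with a log2 fold change of at least 1 in size was reached by 669 genes (4.05%) on the higher side and 465 (2.82%) on the lower side. The median log2 fold change over all genes tested was -0.01. The counts of list members are read against the 17.2% and the 17.6%. A fit of the 6 libraries alone, an alternative given below, called more genes, 3804 higher and 3575 lower of 14889 tested. Counts from that fit are read against these numbers.

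SMAP9C, raised under the same drug, shows where a like clone lay for those 1134 genes. Its mean log2 level was placed on a line from SMAP6G at 0 to SMAP8D at 1. It lay above 0.75, near SMAP8D or beyond it, for 462 genes (40.7%), between 0.25 and 0.75 for 389 (34.3%), and below 0.25 for 283 (25%). Among the 669 genes higher in SMAP8D the 3 counts were 244, 222 and 203, and among the 465 lower genes they were 218, 167 and 80. Many of these lay outside both clones, 276 of the 462 beyond SMAP8D and 144 of the 283 beyond SMAP6G. SMAP9C thus lay near or beyond SMAP8D for more of these genes than near or beyond SMAP6G.

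**Figure D1:**
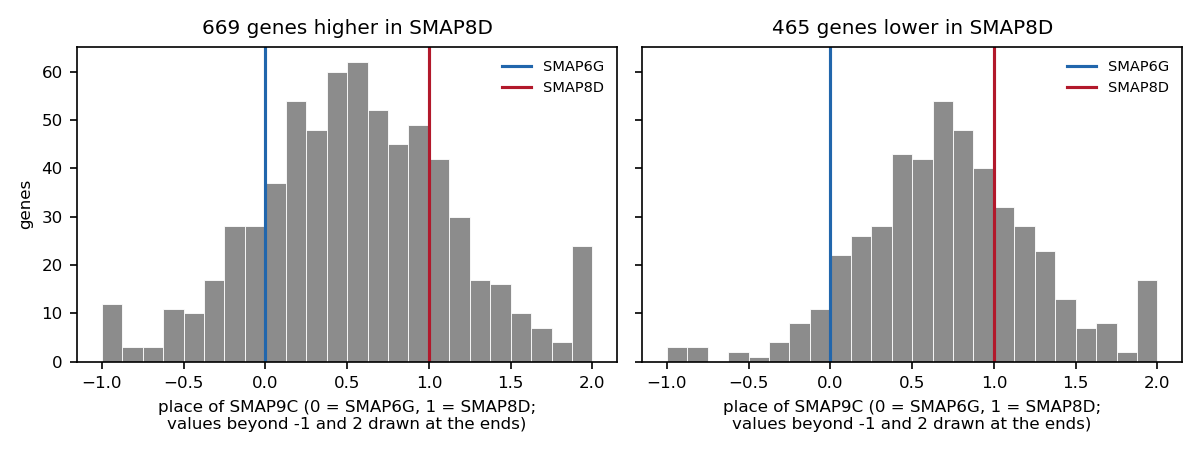
Histograms of the place of SMAP9C between SMAP6G (0, blue line) and SMAP8D (1, red line) on the log2 CPM scale, for the 669 genes higher and the 465 genes lower in SMAP8D by a log2 of at least 1, with the number of genes on the vertical axis. Values beyond -1 and 2 are drawn in the end bars, and the genes spread over the whole range between the clones.

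Genes of PP2A, the stated target of the drug, were called at about the share of all genes. Of 35 PP2A subunits and regulators, all of them tested, 7 were higher (20%) and 6 lower (17.1%), beside 17.2% and 17.6% of all genes. The list's median log2 fold change was 0.05. In a fit of the 6 libraries alone 13 members were higher, beside 3804 of all 14889 genes. Without a filter on low counts 3 members were lower, beside 2576 of all 32697 genes.

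PPP2R2B (ENSG00000156475, chromosome 5), which encodes the B-beta regulatory subunit, was the 1 member that differed by more than 2-fold in its called log2 fold change. PPP2R2B was at 2.73, 1.97 and 2.64 CPM in the SMAP8D libraries and at 37.8, 31.9 and 33.4 CPM in the SMAP6G libraries. The log2 fold change was -3.80 ± 0.18 (edgeR adjusted p = 2.05e-12). SMAP9C lay with SMAP8D, at 1.81, 1.47 and 1.46 CPM. Among the other clones the mean was 47.6 CPM in ATUX8H, 2.104 in ATUX9D, 25.6 in Sor6G and 41.9 in Sor9H, so that the low levels lay in 3 of the 7 clones, from SMAP and from ATUX.

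The remaining called PP2A genes moved little. MID1, a ubiquitin ligase that targets the PP2A catalytic subunit, was at 21.2, 21.3 and 19.6 CPM in SMAP8D and at 39.1, 34.2 and 35.7 CPM in SMAP6G (log2 fold change -0.81 ± 0.14, edgeR adjusted p = 0.000101). Of the scaffolds, PPP2R1A was higher (log2 0.17) and PPP2R1B lower (log2 -0.30). The catalytic subunit gene PPP2CB was higher by a log2 of 0.25, while PPP2CA, the other catalytic gene, had means of 177 and 179 CPM and was not called. The regulatory subunits PPP2R3B (log2 0.54) and PPP2R2D (log2 0.35) were higher and PPP2R5A (log2 -0.16) was lower. The inhibitors and binding proteins FAM122A (log2 0.47), KIAA1524 (log2 0.28), which encodes CIP2A, and ANP32E (log2 0.24) were higher, and IGBP1 (log2 -0.20) and ARPP19 (log2 -0.14) were lower. The calls of PPP2R1A, PPP2R5A, IGBP1 and ARPP19 were each lost under 2 or more alternatives.

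The clones differed sharply in single genes of cell junctions, without a shift of the epithelial list in one direction. Of 36 epithelial junction and identity genes tested, 8 were higher in SMAP8D and 11 lower. Their median was -0.13 (5 were higher without SMAP6G replicate 1, beside 2487 of all 16914 genes). The desmosome shows this most plainly. Desmosomes anchor keratin filaments at the cell surface, with desmoplakin and plakophilins inside the membrane.

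DSP, which encodes desmoplakin, was higher in SMAP8D. DSP was at 65.8, 58.9 and 59.7 CPM in the SMAP8D libraries and at 1.696, 1.14 and 1.25 CPM in the SMAP6G libraries (log2 fold change 5.49 ± 0.15, edgeR adjusted p = 2.16e-18). PKP2, which encodes plakophilin 2, lay the other way. PKP2 was at 0.0395, 0.0449 and 0.0811 CPM in the SMAP8D libraries and at 11.03, 10.3 and 11.6 CPM in the SMAP6G libraries (log2 fold change -7.50 ± 1.59, edgeR adjusted p = 0.00188). These 2 partners of the desmosome thus lay on opposite sides. The PKP2 call was lost with limma-voom (adjusted p = 0.0574), and DESeq2 gave PKP2 no adjusted p. SMAP9C held 33.1, 35.9 and 33.4 CPM of DSP and 0.344, 0.696 and 0.438 CPM of PKP2.

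CLDN4, a tight junction claudin, was lower in SMAP8D. CLDN4 was at 4.78, 5.07 and 5.92 CPM in the SMAP8D libraries and at 144, 149.8 and 153 CPM in the SMAP6G libraries (log2 fold change -4.82 ± 0.093, edgeR adjusted p = 2.7e-21). SMAP9C lay between, at 26.1, 23.7 and 24.3 CPM. ELF3, an epithelial transcription factor, was at 0.829, 0.583 and 0.608 CPM in SMAP8D and 11.03, 13.1 and 11.1 CPM in SMAP6G (log2 fold change -4.11 ± 0.41, edgeR adjusted p = 5.62e-07); a gene on the opposite strand overlaps it, and the strand setting of the counting is not given in the sources used here. CDH1, the E-cadherin gene, was at 8.57, 7.63 and 7.66 CPM in SMAP8D and 15.1, 15.8 and 16.2 CPM in SMAP6G. Its libraries did not overlap, and it was not called in the fit that shares the spread over 21 libraries (edgeR adjusted p = 0.0983).

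Keratins, the filaments of epithelial cells, took most of the duct marker counts. Of 10 tested, 2 were higher and 4 lower, and their summed level was 1391 to 1464 CPM in SMAP8D against 3098 to 3232 CPM in SMAP6G. The list's median changed sign with the filter (0.16, and -0.46 with at least 1 CPM in 3 libraries). KRT19 was at 153, 176 and 175 CPM in the SMAP8D libraries and at 688, 709 and 699 CPM in the SMAP6G libraries (log2 fold change -2.06 ± 0.14, edgeR adjusted p = 4.18e-09). KRT15 had a log2 fold change of -2.89, KRT18 of -0.98 and KRT8 of -0.92. The 3 and 3 libraries of these 4 called genes did not overlap, and the share of all genes without overlap is not given here. Keratin genes have processed pseudogenes and KRT8 and KRT18 are overlapped by an opposite-strand gene, so the authors' counting could split their reads.

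**Figure D2:**
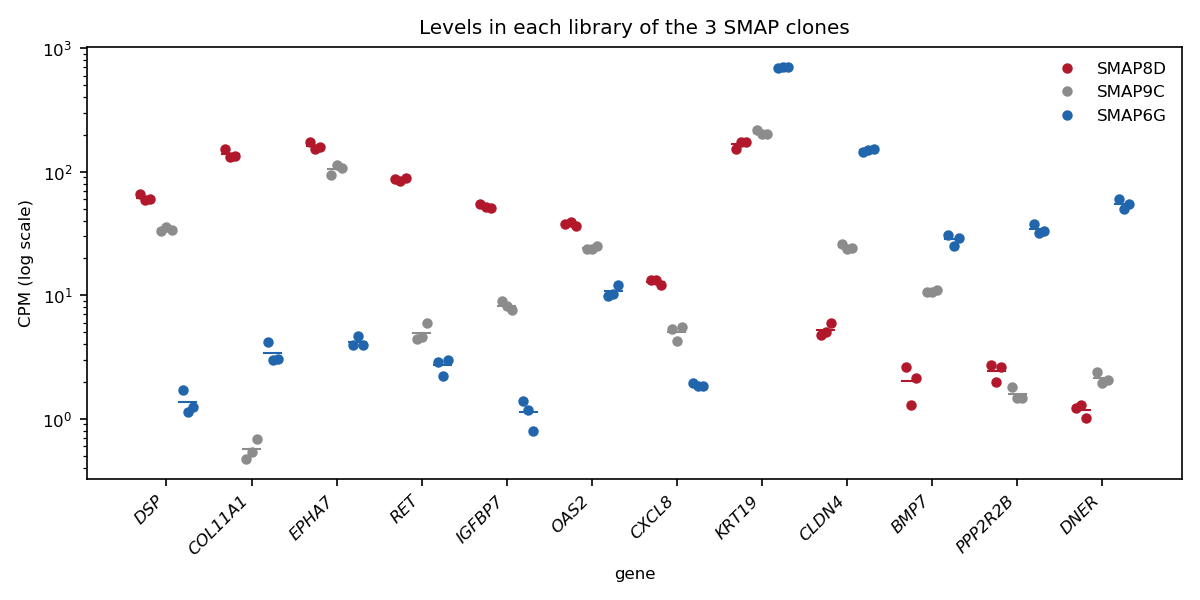
CPM after TMM scaling (vertical log axis) of 12 genes in each of the 3 libraries of SMAP8D (red), SMAP9C (grey) and SMAP6G (blue), with a short line at each mean. The 12 genes were picked from the called genes, so a distance between SMAP8D and SMAP6G is part of how they were picked. The rule for the widest rises and falls, which named DSP, COL11A1, EPHA7, RET and IGFBP7 among others, also requires that libraries do not overlap. SMAP9C lies with SMAP8D for some genes (PPP2R2B, DNER), with SMAP6G for others (RET) and between for others (CLDN4).

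Mesenchymal genes moved both ways. Of 31 tested, 9 were higher and 8 lower, with a median of 0.06 (-0.01 without SMAP8D replicate 3). SPARC, a matrix glycoprotein, was at 75.4, 56.9 and 53.7 CPM in SMAP8D and at 8.79, 10.6 and 11.4 CPM in SMAP6G (log2 fold change 2.59 ± 0.39, edgeR adjusted p = 0.00011). PRRX1, a mesenchymal transcription factor, fell from 3.21, 3.47 and 3.92 CPM in SMAP6G to 0.197, 0.179 and 0.243 CPM in SMAP8D (log2 fold change -4.06 ± 0.29, edgeR adjusted p = 7.8e-11). FN1, which encodes fibronectin, had a log2 fold change of -1.81 and FBN1, which encodes fibrillin 1, of -1.79; the FN1 call was lost with limma-voom.

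Collagens were among the groups with the highest share of called members. Of 25 tested, 15 were higher in SMAP8D (60%) and 5 lower (20%), with a median of 0.90. Their summed level was 3935 to 3999 CPM in SMAP8D and 2841 to 2913 CPM in SMAP6G. Classes of collagen went apart when they were counted after their values had been seen. Fibrillar collagens form the fibres of connective tissue. Of 8 of their genes picked for this count, which is not the whole class, 7 were higher and 0 lower. The 3 tested type IV collagen genes, which form the sheets of basement membrane, were all lower.

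COL11A1 encodes a fibrillar collagen and rose from a low level. COL11A1 was at 153, 132 and 134 CPM in the SMAP8D libraries and at 4.196, 3.02 and 3.03 CPM in the SMAP6G libraries (log2 fold change 5.35 ± 0.46, edgeR adjusted p = 3.4e-07). SMAP9C was lower still, at 0.473, 0.541 and 0.681 CPM. COL3A1 was at 14.4, 10.8 and 10.8 CPM in SMAP8D and 1.43, 2.33 and 1.56 CPM in SMAP6G (log2 fold change 2.76 ± 0.41, edgeR adjusted p = 9.36e-05), and COL23A1, a transmembrane collagen, was higher by a log2 of 5.53. COL4A2 lay the other way. COL4A2 was at 0.7504, 0.808 and 0.892 CPM in the SMAP8D libraries and at 12.6, 11.3 and 12.2 CPM in the SMAP6G libraries (log2 fold change -3.87 ± 0.37, edgeR adjusted p = 2.85e-07). Its head-to-head neighbour COL4A1 had a log2 fold change of -3.38. Both are overlapped by an opposite-strand gene.

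Several fibrillar collagens are also fibroblast markers, and the summed level of the 10 fibroblast markers was 191.6 to 196.5 CPM in SMAP8D and 65.56 to 68.64 CPM in SMAP6G. Of the 9 tested, 6 were higher and 0 lower, among them COL1A1 (log2 1.63), COL3A1 and LUM (log2 4.05). The defining markers PDGFRA and FAP were near 0, with 1 and 4 counts over the SMAP8D libraries and 2 and 1 over the SMAP6G libraries. PDGFRB had means of 1.41 and 0.823 CPM, ACTA2 of 3.32 and 2.46 CPM and THY1 of 15.7 and 11.7 CPM in SMAP8D and SMAP6G. The part of other cells in the collagen levels was not tested.

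Among 25 cadherins and protocadherins tested, 11 were higher and 1 lower, with a median of 0.50. CDH6 was higher by a log2 of 1.24, CDH3, the P-cadherin gene, by 1.02, and PCDH9 by 1.64. Among 29 integrins and laminins, 10 were higher and 4 lower. ITGA10, an alpha subunit of a collagen-binding integrin, rose from 22.5, 21.7 and 20.4 to 84.1, 90.4 and 90.9 CPM (log2 fold change 2.04 ± 0.22, edgeR adjusted p = 4.19e-06), and LAMA3, a laminin subunit of epithelial basement membrane, fell from 22.99, 16.8 and 23.2 to 3.71, 4.44 and 4.18 CPM (log2 fold change -2.35 ± 0.18, edgeR adjusted p = 4.61e-10). Among 31 matrix proteases and inhibitors, 6 were higher and 4 lower. TIMP3, a metalloproteinase inhibitor bound to matrix, was at 0.158, 0.269 and 0.0811 CPM in SMAP8D and 2.77, 2.696 and 2.27 CPM in SMAP6G (log2 fold change -3.91 ± 0.41, edgeR adjusted p = 6.72e-08).

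Receptors for growth and guidance cues held some of the widest differences. Of 50 growth factor receptors and kinases tested, 16 were higher and 9 lower, with a median of 0.15. EPHA7, an ephrin receptor, was abundant in SMAP8D. EPHA7 was at 175, 152 and 159 CPM in the SMAP8D libraries and at 3.97, 4.66 and 3.97 CPM in the SMAP6G libraries (log2 fold change 5.27 ± 0.18, edgeR adjusted p = 6.09e-13). SMAP9C lay near SMAP8D, at 93.7, 114 and 107 CPM. EPHA3 was higher by a log2 of 4.49 and EPHB2 by 1.03, and EFNB2, which encodes a ligand of EPHB receptors, by 1.86.

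RET, the receptor of the GDNF family, separated SMAP8D from both other SMAP clones. RET was at 87.4, 83.5 and 88.8 CPM in the SMAP8D libraries and at 2.901, 2.24 and 2.99 CPM in the SMAP6G libraries (log2 fold change 4.99 ± 0.49, edgeR adjusted p = 1.49e-06). SMAP9C held 4.43, 4.600 and 5.94 CPM. The other clones had means of 76.5 CPM in ATUX8H, 34.6 in ATUX9D, 1.44 in Sor6G and 0.842 in Sor9H.

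Genes that report ERK activity were higher more often than lower. Of 36 tested, 15 were higher and 4 lower, with a median of 0.21, and 8 were lower in a fit of the 6 libraries alone. DUSP6, a phosphatase that switches ERK off and is itself induced by it, was higher. DUSP6 was at 8.18, 9.69 and 10.99 CPM in the SMAP8D libraries and at 1.79, 2.01 and 1.65 CPM in the SMAP6G libraries (log2 fold change 2.40 ± 0.35, edgeR adjusted p = 5.09e-05). The ETS factors ETV4 (log2 2.39) and ETV5 (log2 1.93), which ERK signalling induces, were higher too. SPRY and SPRED genes encode feedback inhibitors of the pathway. Of 6 of them, counted after their values had been seen, 5 were higher and 0 lower. TGFA, a ligand of the EGF receptor on the same list, was lower. TGFA was at 0.513, 0.359 and 0.649 CPM in the SMAP8D libraries and at 4.73, 4.71 and 3.97 CPM in the SMAP6G libraries (log2 fold change -3.12 ± 0.24, edgeR adjusted p = 2.98e-10).

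WNT pathway genes were called higher in 18 of 43 cases and lower in 3, with a median of 0.44. The median was 0.24 without the genes of chromosome 12 and 0.27 without SMAP6G replicate 1. FZD8, a frizzled receptor, was at 6.28, 6.103 and 6.77 CPM in SMAP8D and 0.402, 1.05 and 0.669 CPM in SMAP6G (log2 fold change 3.17 ± 0.23, edgeR adjusted p = 1.09e-10). FZD6 was higher by a log2 of 1.42, and the ligand gene WNT5B by 1.29. Of 9 frizzled genes tested, counted after their values had been seen, 5 were higher and 1 lower. SFRP1, a secreted inhibitor of WNT ligands, was higher as well. SFRP1 was at 61.7, 61.5 and 61.1 CPM in the SMAP8D libraries and at 21.96, 18.5 and 18.2 CPM in the SMAP6G libraries (log2 fold change 1.65 ± 0.26, edgeR adjusted p = 0.00015). Receptors, a ligand and an inhibitor were thus among the members that rose.

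Growth factor carriers of the IGF axis changed by large factors while the list as a whole moved both ways (6 of 19 higher, 4 lower). IGFBP7, a secreted IGF-binding protein, rose. IGFBP7 was at 54.8, 51.3 and 50.97 CPM in the SMAP8D libraries and at 1.38, 1.19 and 0.803 CPM in the SMAP6G libraries (log2 fold change 5.54 ± 0.21, edgeR adjusted p = 4.86e-14). IGF2, an imprinted growth factor, was at 49.6, 55.2 and 54.99 CPM in SMAP8D and at 6.52, 5.21 and 6.78 CPM in SMAP6G (log2 fold change 3.11 ± 0.13, edgeR adjusted p = 9.59e-15), and IGFBP4 had a log2 fold change of -1.74. Of 23 imprinted genes tested, 9 were higher and 3 lower, with a median of 0.02. PLAGL1, an imprinted zinc finger gene, had 336 counts over the SMAP8D libraries and 2 over the SMAP6G libraries, a ratio of 155 after scaling for depth (95% interval 42.6 to 1290, counting error only).

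Of 46 TGF-beta and BMP genes tested, 16 were higher (34.8%) and 11 lower (23.9%), with a median of 0.02 (0.13 without SMAP8D replicate 3 and -0.01 without SMAP8D replicate 2). BMP7, a bone morphogenetic protein, was lower. BMP7 was at 2.65, 1.301 and 2.15 CPM in the SMAP8D libraries and at 30.7, 24.99 and 29.3 CPM in the SMAP6G libraries (log2 fold change -3.78 ± 0.23, edgeR adjusted p = 2.89e-11). LTBP1, which holds latent TGF-beta in the matrix, was higher. LTBP1 was at 9.91, 9.15 and 9.002 CPM in the SMAP8D libraries and at 0.714, 0.685 and 1.07 CPM in the SMAP6G libraries (log2 fold change 3.50 ± 0.18, edgeR adjusted p = 7.18e-13). GDF15, a stress-induced member of the family, had a log2 fold change of -2.21.

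The cell cycle lists gave small differences whose called members lay on the higher side. Of 39 genes of G1 to S transition and replication, 27 were higher in SMAP8D (69.2%) and 0 lower, with a median of 0.27. Of 37 genes of G2 and mitosis, 20 were higher (54.1%) and 0 lower, with a median of 0.21. Of 13 cyclin D and CDK inhibitor genes, 7 were higher and 0 lower. In a fit of the 6 libraries alone, 1 member was lower in each of the mitosis and cyclin D lists and 0 in the replication list. The sizes were below 2-fold, as POLE, the catalytic subunit of DNA polymerase epsilon, shows. POLE was at 135, 138 and 140.1 CPM in the SMAP8D libraries and at 96.2, 83.5 and 87.6 CPM in the SMAP6G libraries (log2 fold change 0.63 ± 0.062, edgeR adjusted p = 2.29e-08). CCNE2, which encodes cyclin E2, was higher by a log2 of 0.55, RRM1, the large subunit of ribonucleotide reductase, by 0.51, ANLN, a protein of the cleavage furrow, by 0.49, and AURKB, a mitotic kinase, by 0.47. CCND1, the cyclin D1 gene, and CDKN1A, which encodes the CDK inhibitor p21, were higher by a log2 of 0.82 and 0.45. In SMAP9C the summed level of the replication list was 2388 to 2510 CPM, below SMAP6G (2832 to 2899) and SMAP8D (3390 to 3560). RNA per cell, growth rate and culture density were not measured in these files, and their part in the cell cycle levels was not tested.

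Many interferon response genes were higher in SMAP8D. Of 51 tested, 29 were higher (56.9%) and 4 lower (7.84%), with a median of 0.31. Over the alternatives 23 to 36 were higher, beside 2330 to 3804 of all genes tested. All 4 genes of the OAS family, which sense double-stranded RNA, and 3 of 4 IFIT genes, which bind foreign RNA, were higher in a count made after their values were seen. OAS2 was at 37.8, 38.8 and 36.3 CPM in the SMAP8D libraries and at 9.82, 10.3 and 12.2 CPM in the SMAP6G libraries (log2 fold change 1.81 ± 0.11, edgeR adjusted p = 7.82e-12). SMAP9C lay between, at 23.5, 23.5 and 24.96 CPM. MX1, an antiviral GTPase, was higher by a log2 of 1.67 and RSAD2, which encodes viperin, by 1.71. For MX1 and RSAD2 SMAP9C lay below SMAP6G, with means of 3.70 against 7.11 CPM and 0.924 against 1.21 CPM. The antigen presentation list, which interferons also induce, had 3 of 30 members higher and 2 lower. Without SMAP8D replicate 3 it had 1 higher, beside 2400 of all 16893 genes. In a fit of the 6 libraries it had 6 higher, beside 3804 of 14889. Chromosome 12 leaned to the higher side as a whole. Of its 5 interferon genes 4 were higher, and without that chromosome 25 of 46 were higher, against 15.8% of all genes off it.

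The promoters of the interferon and replication lists were searched for the elements that their regulators are known to bind, the ISRE (GAAA, any 2 bases, GAAA) and the E2F site (TTTCCCGC or TTTGGCGC), on both strands of the 250 bases before the first RefSeq start site listed for each member. The ISRE letters were found in 1061 of 35116 promoters (3.02%) and in 22 of the 38 interferon members with a promoter in the table. They were in 12 of the 22 members that were higher and in 10 of the other 16, so the share was not larger among the members that rose. The E2F letters were in 677 of 35116 promoters (1.93%) and in 14 of 34 replication members, 9 of the 24 that were higher and 5 of the other 10. A match is a run of letters and not a bound site. Of the higher members with a match and at least 5 CPM in the higher clone, the 2 with the largest log2 fold change on each list are printed to show where the letters lie. They are HERC5 and OAS3 with the ISRE and POLE and RFC3 with the E2F site in capitals, 5′ to 3′ on the strand of the gene (RefSeq, GRCh38.p14).
HERC5, chr4:88456869-88457118, plus strand: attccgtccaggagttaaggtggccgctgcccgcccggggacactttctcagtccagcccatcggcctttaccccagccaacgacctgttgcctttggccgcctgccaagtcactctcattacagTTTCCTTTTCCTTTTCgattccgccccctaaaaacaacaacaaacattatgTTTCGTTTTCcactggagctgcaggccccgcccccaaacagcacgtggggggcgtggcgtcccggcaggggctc
OAS3, chr12:112938224-112938473, plus strand: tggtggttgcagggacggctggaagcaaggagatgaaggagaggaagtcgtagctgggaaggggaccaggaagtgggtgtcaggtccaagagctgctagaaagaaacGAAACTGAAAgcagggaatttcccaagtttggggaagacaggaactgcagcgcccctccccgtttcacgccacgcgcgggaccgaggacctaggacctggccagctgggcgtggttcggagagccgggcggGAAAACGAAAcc
POLE, chr12:132687343-132687592, minus strand: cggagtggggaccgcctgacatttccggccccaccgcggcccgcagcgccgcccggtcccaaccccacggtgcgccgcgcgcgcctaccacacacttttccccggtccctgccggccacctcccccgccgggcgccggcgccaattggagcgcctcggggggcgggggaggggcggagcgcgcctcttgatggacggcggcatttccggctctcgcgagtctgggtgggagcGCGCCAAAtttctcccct
RFC3, chr13:33817899-33818148, plus strand: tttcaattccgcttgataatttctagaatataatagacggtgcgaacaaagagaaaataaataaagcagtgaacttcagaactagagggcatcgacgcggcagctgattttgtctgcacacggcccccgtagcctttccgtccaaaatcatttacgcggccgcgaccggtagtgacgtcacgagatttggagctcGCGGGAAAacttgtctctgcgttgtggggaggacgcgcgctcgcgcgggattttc
In HERC5, which encodes an ISG15 ligase, the capitals mark 3 matches, of which the first and second overlap. The mean level was 34.6 CPM in SMAP8D and 15.2 CPM in SMAP6G. OAS3 holds 2 matches and had means of 228 and 126 CPM. POLE and RFC3, a subunit of the clamp loader, hold 1 match each, and RFC3 had means of 38.5 and 29.1 CPM. A check of 6 promoters, the printed ones among them, asked whether the bases after the start site open a transcript of the gene. It held for 5 of the 6.

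NF-kB targets and cytokines were higher in 14 of 33 cases and lower in 4, with a median of 0.27. Without SMAP6G replicate 1 the higher count was 9, beside 2487 of all 16914 genes. With no filter it was 19, beside 2979 of all 32697 genes. The neutrophil-attracting CXC chemokines led the list. CXCL8 was at 13.3, 13.2 and 12.04 CPM in the SMAP8D libraries and at 1.96, 1.83 and 1.83 CPM in the SMAP6G libraries (log2 fold change 2.77 ± 0.45, edgeR adjusted p = 0.000133). CXCL6 was higher by a log2 of 4.16, CXCL5 by 2.52 and CXCL3 by 1.68. Of 10 CXC chemokine genes picked for a count made after their values were seen, 7 were tested, 6 were higher and 0 lower. The 10 are not the whole class.

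**Figure D3:**
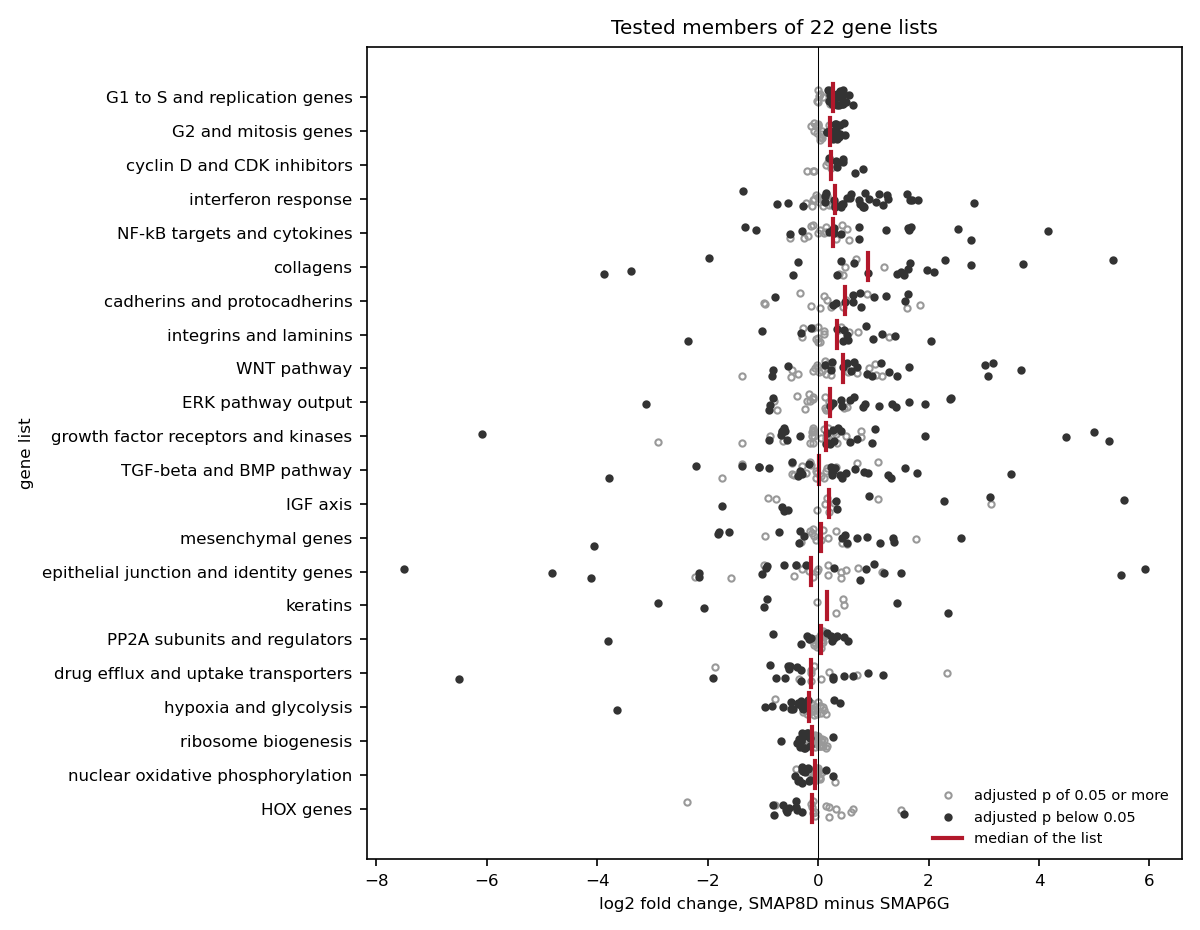
Log2 fold change, SMAP8D minus SMAP6G (horizontal axis), of each tested member of 22 gene lists (1 row per list), with members at an adjusted p below 0.05 as filled points, others as open points and the list's median as a red bar. The cell cycle lists form narrow groups to the right of 0 (medians 0.27, 0.21 and 0.23), while the collagens, the epithelial genes and the receptors spread from large falls to large rises.

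Genes of drug handling were called in both directions. Of 27 efflux and uptake transporters tested, 6 were higher and 11 lower (40.7%), with a median of -0.14 (-0.22 with at least 1 CPM in 3 libraries). Their summed level was 2282 to 2302 CPM in SMAP8D and 2058 to 2126 CPM in SMAP6G, so the sum lay on the other side from the median. ABCG2, an efflux pump of many drugs, was at 12.2, 11.8 and 10.6 CPM in SMAP8D and 20.98, 21.7 and 20.6 CPM in SMAP6G (log2 fold change -0.87 ± 0.17, edgeR adjusted p = 0.000575). SLC29A1, a nucleoside transporter, was higher by a log2 of 0.91, and ABCA5, a lipid transporter, had a log2 fold change of -1.91. Of 43 xenobiotic enzymes, 8 were higher and 13 lower. Without SMAP8D replicate 3, 5 were higher, beside 2400 of all 16893 genes. With no filter 14 were higher and 12 lower, so the direction of the count turned. Over all 32697 genes of the fit with no filter, 2979 were higher and 2576 lower. The summed level of the xenobiotic enzymes was 3084 to 3316 CPM in SMAP8D and 2898 to 2906 CPM in SMAP6G. AKR1C1, an aldo-keto reductase with close paralogs that could share its reads, rose from 0.0893, 0.274 and 0.223 to 2.05, 2.47 and 2.35 CPM (log2 fold change 3.52 ± 0.32, edgeR adjusted p = 7.51e-09). ALDH1A3, an aldehyde dehydrogenase that makes retinoic acid, was lower. ALDH1A3 was at 39.4, 44.6 and 45.5 CPM in the SMAP8D libraries and at 100.4, 97.2 and 97.8 CPM in the SMAP6G libraries (log2 fold change -1.19 ± 0.11, edgeR adjusted p = 1.53e-07).

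HOX genes, which set position along the body axis, were lower in 10 of 27 cases and higher in 1. Most calls fell in the HOXB cluster, where 7 of 9 tested genes were lower in a count made after their values were seen. HOXB2 had a log2 fold change of -0.82, HOXB3 of -0.80 and HOXB8 of -0.63, and HOXA13 was higher by a log2 of 1.55. Neighbouring genes of the cluster overlap, so their reads may be shared.

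The widest rises included KIF26B, a kinesin family member. KIF26B was at 29.03, 26.2 and 22.5 CPM in the SMAP8D libraries and at 0.0893, 0.274 and 0.0446 CPM in the SMAP6G libraries (log2 fold change 7.53 ± 0.28, edgeR adjusted p = 8.72e-15). AGR2, a disulphide isomerase of secretory cells, was at 25.3, 19.03 and 21.8 CPM in SMAP8D and 0.134, 0.137 and 0 CPM in SMAP6G (log2 fold change 7.86 ± 0.74, edgeR adjusted p = 9.94e-07). Its means were 559 CPM in Sor9H, 213 in Sor6G, 111 in ATUX8H, 31.99 in ATUX9D and 0.0692 in SMAP9C, so that SMAP8D lay below all 4 ATUX and Sorafenib clones and SMAP6G and SMAP9C lay near 0. SORBS2, an actin adaptor, had 535 counts over the SMAP8D libraries and 3 over the SMAP6G libraries (ratio 165, 95% interval 56 to 801, counting error only). RTN1, LPAR3, a receptor of lysophosphatidic acid, and B4GALNT3 were higher by a log2 of 5.76, 5.60 and 5.55.

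Among the widest falls, DNER, a Notch ligand, dropped in SMAP8D. DNER was at 1.22, 1.301 and 1.01 CPM in the SMAP8D libraries and at 59.6, 49.8 and 54.4 CPM in the SMAP6G libraries (log2 fold change -5.53 ± 0.17, edgeR adjusted p = 3.41e-17). AMOT, which encodes the YAP-binding protein angiomotin, had a log2 fold change of -5.52, DLC1, a GTPase-activating protein, of -4.57, PTPRM, a receptor phosphatase, of -4.61, and CUX2, a homeobox factor, of -6.50. Abundant genes differed as well. CRABP2, which carries retinoic acid to its receptor, was at 108, 97.4 and 103 CPM in SMAP8D and 627, 642 and 647 CPM in SMAP6G (log2 fold change -2.63 ± 0.18, edgeR adjusted p = 1.81e-08). On the higher side, SDC1 was at 412, 417 and 438 CPM in the SMAP8D libraries and at 102, 96.6 and 101 CPM in the SMAP6G libraries (log2 fold change 2.08 ± 0.084, edgeR adjusted p = 4.76e-14); SDC1 encodes the cell surface proteoglycan syndecan 1. NT5E, an ectonucleotidase that makes adenosine, was higher by a log2 of 1.35 and MICAL2, an actin-oxidising enzyme, by 2.17.

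Differences also lay along chromosomes. Over 280 windows of 10 Mb, each with at least 10 genes at a mean of 5 CPM or more, the median log2 fold change ran from -0.37 to 0.36, and 8 windows were at 0.3 or more in size. Chromosome 12 held 3 of them. All 13 of its windows were above 0, and 314 of its 572 genes (54.9%) were higher in SMAP8D and 33 (5.77%) lower, against 20.4% and 21.4% of the 10805 genes used. Its median was 0.21. SMAP9C was close to SMAP8D on this chromosome, with a median of -0.06 for SMAP8D minus SMAP9C and 0.26 for SMAP9C minus SMAP6G, 2 differences that share the SMAP9C libraries.

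Other chromosomes leaned either way. On chromosome 20, 143 of 310 genes (46.1%) were lower, on chromosome 5 218 of 512 (42.6%) and on chromosome 2 264 of 715 (36.9%). On chromosome 10, 166 of 439 (37.8%) were higher, on chromosome 11 191 of 646 (29.6%) and on chromosome 13 57 of 193 (29.5%). At the end of chromosome 18 (70 to 80 Mb), 14 of 17 genes were lower, with a median of -0.37. On chromosome X, windows at 0 to 10 Mb and 20 to 30 Mb had medians of 0.31 and 0.36. Other windows of X lay the other way, such as 110 to 120 Mb (-0.28) and 150 to 160 Mb (-0.24). Over the whole of X, 109 of 354 genes (30.8%) were lower and 81 (22.9%) higher. DNA copy number was not measured in these files, and its part in these levels was not tested.

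**Figure D4:**
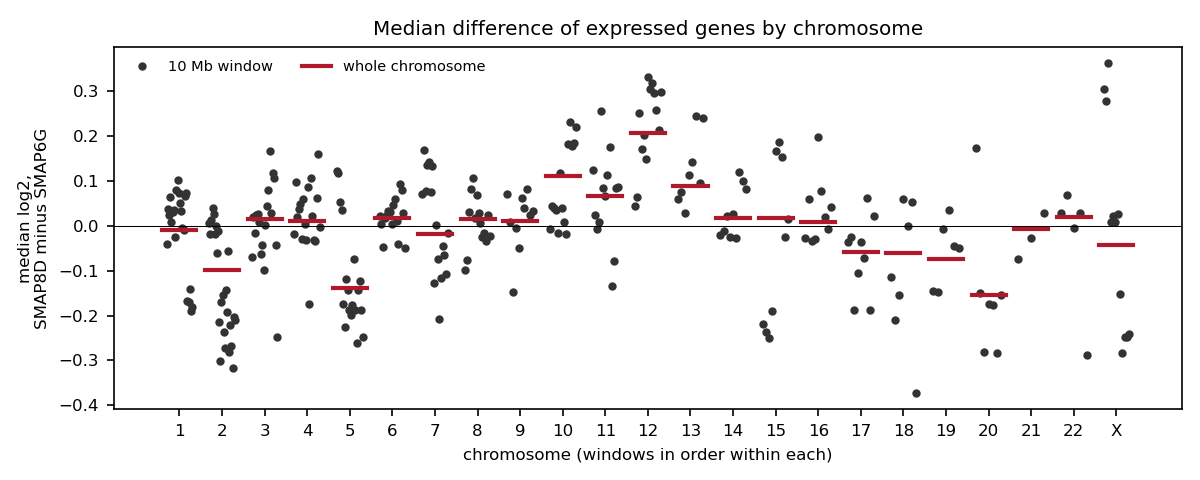
Median log2 fold change, SMAP8D minus SMAP6G (vertical axis), of expressed genes in 10 Mb windows (points, in order within each chromosome) and over whole chromosomes (red bars). All 13 windows of chromosome 12 lie above 0, and the whole-chromosome medians of chromosomes 2, 5 and 20 are -0.0995, -0.14 and -0.15.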

How the data were processed

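RNA-seq libraries of Panc-1 clones (3 per clone, 7 clones) were compared, with 500 ng of RNA per library and poly-A selection by a stranded kit, per the labels' protocols. The authors deposited raw read counts, whole numbers for 58233 genes with no normalization, per the file headers. The authors also deposited a GC percent and a length per gene, which were not used. The submitters' processing notes list featureCounts 1.5.3, SAMtools 1.5, STAR 2.5.2b, cutadapt 1.15 and Bowtie2 2.3.3.1, with the build GRCh38. Not given in the sources used here are the annotation release, the strand setting and how multiply mapped reads were counted. Columns of other samples numbered 0.

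A robust quasi-likelihood model of edgeR 4.0.16 (R 4.3.3) was fitted to the counts of all 21 libraries, with the clone as its factor, TMM scaling and the filterByExpr filter. The contrast was SMAP8D minus SMAP6G, with Benjamini-Hochberg adjustment over 16504 genes and a call below 0.05. Levels are CPM after TMM scaling, and errors of log2 fold changes are standard errors taken from the F statistic. The code was tested on simulated data. Repeats of a clone differed by more than sampling noise (chi-square per degree of freedom of at least 2.64). Intervals on low counts are at 95%.

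Named genes were the 15 called genes per direction with the largest change among those at 5 CPM or more in the higher clone whose libraries did not overlap, the 5 most abundant called genes per direction with a log2 of at least 1 in size, up to 4 called members per list at 2 CPM or more, and every called PP2A gene. Uncalled genes that define a list are given with values. Of the 202 named genes, 46 overlap a tested gene on the opposite strand and 8 overlap one on the same strand. The text marks only some of them. IGFBP7, ETV4, RSAD2, FZD6 and CCND1 are among those with an opposite-strand overlap. The clones compared, the lists and the tests were chosen with earlier results of these data known. Alternatives covered the libraries fitted, the scaling, the test (DESeq2 1.42.0, limma-voom in limma 3.58.1), the filter, a replicate block and each replicate left out. A few items are not reported here.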

Additional observations from a re-analysis of the deposited data

How the results depend on the processing

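The count of 5741 genes was 5555 to 7379 over the 9 alternatives that kept all libraries of both clones, and 4724 to 4917 when 1 library was left out. It was 1134 when a log2 fold change of at least 1 in size was also required. Of the 202 named genes, 184 stayed called under all 15 alternatives and no named gene changed direction in those that gave it a value (14 for PKP2). The 18 others lost the call under at least 1, among them ABCA1, ARPP19, CD24, CDKN1C, FN1, GLDC, MUC16, PKP2, PSAT1 and THY1, and the cause was not tested. Of 1426 counts of called list members, 142 moved by more than 1.5 times or to or from 0. These counts include the higher members of each list without chromosome 12. Of 690 list medians 130 moved by more than 1 SD of the list's median between libraries of a clone. Repeat numbers did not pair the libraries: the deviations of same-numbered libraries correlated at 0.0228, -0.119 and 0.0768, and the fit with a replicate block called 5870 genes. The depth of 21515482 to 24997019 counts limits genes of a few counts. Ratios with intervals are given for the named genes with 3 counts or fewer in a clone, PLAGL1 and SORBS2. Other wide changes have no such interval, among them AGR2 (6 counts over the SMAP6G libraries), B4GALNT3 (7) and KIF26B (9).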

Other observations

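Of 39 ribosome biogenesis genes tested, 16 were lower and 1 higher, with a median log2 fold change of -0.10, and POLR1B, a subunit of RNA polymerase I, had a log2 fold change of -0.39. Of 38 nuclear genes of oxidative phosphorylation, 13 were lower and 2 higher, with COX5B, a subunit of cytochrome c oxidase, at -0.41. Of 36 hypoxia and glycolysis genes, 14 were lower and 2 higher (22 lower in a fit of the 6 libraries alone), with SLC2A1, the glucose transporter GLUT1, at -0.83 and EPAS1, which encodes HIF-2 alpha, at -0.63. Over all genes tested, 17.6% were lower. Most members of these 3 lists were not called (22, 23 and 20).

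Among 20 genes of serine synthesis and one-carbon metabolism, 7 were higher and 3 lower. Without SMAP6G replicate 1, 3 were higher, beside 2487 of all 16914 genes. PHGDH, the first enzyme of serine synthesis, had a log2 fold change of 1.21, and MAT2A, which makes S-adenosylmethionine, of -0.76. Of 48 axon guidance genes, 16 were higher and 4 lower (11 lower in a fit of the 6 libraries alone), while the list's median was -0.004. NTN1, which encodes netrin 1, had a log2 fold change of 3.42 and UNC5B, a netrin receptor, of 1.69.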
